A study of Mus musculus with 7 samples.

Results

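The transcripts of 10 enzymes that hydroxylate or crosslink collagen were followed in basal cells sorted from mouse mammary glands. They were 5 lysyl oxidases (Lox, Loxl1, Loxl2, Loxl3 and Loxl4), 3 lysyl hydroxylases (Plod1, Plod2 and Plod3) and 2 catalytic subunits of collagen prolyl 4-hydroxylase (P4ha1 and P4ha2). They were taken by gene symbol from a table of 56440 gene models. Each had 1 row, and the rows of Loxl2, Loxl3 and Plod3 also carry the name of a microRNA, which stands before the gene symbol for Plod3. The filter on low values, a normalised read count of 10 or more in at least 3 libraries, was passed by all 10, and by 16889 gene models in all.

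Basal cells of the mammary gland are mostly contractile myoepithelial cells, which surround the milk-producing luminal cells and contact the basement membrane. They were sorted by FACS from fresh tissue of mice on day 2 of lactation, and the labels do not state the sort markers. There were 4 control libraries (Ctrl) and 3 mutant libraries (a3a6KO), which the series text calls biological replicates. The a3a6KO label names the integrin subunits α3 and α6, which form receptors for laminin with a β subunit. The sample titles mark every control as Blg negative and every mutant as Blg positive. From knowledge of the study, Blg refers to a Cre recombinase driven by the beta-lactoglobulin promoter, which is active in luminal secretory cells. The basal cells measured here are then neighbours of the cells meant to lose the integrins. The Blg mark and the loss of the integrins cannot be told apart in this design, and the labels state neither age nor strain nor the alleles the controls carry.

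Collagen chains are modified in the endoplasmic reticulum before they fold. Prolyl 4-hydroxylases make hydroxyproline, which stabilises the triple helix, and lysyl hydroxylases make hydroxylysine, a site for sugars and for stronger crosslinks. Outside the cell, the copper-dependent lysyl oxidases convert lysine and hydroxylysine to aldehydes, from which the covalent crosslinks of collagen and elastin form. Basal mammary cells lay down part of the basement membrane on which they rest, and its collagen IV is a substrate of all 3 families.

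The libraries held 9368418 to 21548279 reads. The groups overlapped for both targeted genes. Itga3 ranged from 465 to 719 normalised reads in the controls and from 494 to 818 in the mutants (log2 fold change 0.07, SE 0.21), and Itga6 from 7764 to 10603 and from 8343 to 9083 (−0.10, SE 0.15). These are whole-gene values, so a loss of single exons would not necessarily show. Markers of basal cells were abundant, led by Acta2, which averaged 558170 in the controls and 609210 in the mutants, and Oxtr, which averaged 116510 and 80558. Transcripts of other cell types were also present, and the summed counts of endothelial markers did not overlap between the groups. The summed count of 12 endothelial markers was 4606 to 7492 in the controls and 9626 to 13673 in the mutants. All 12 had a log2 fold change above 0, against 49.4% of all genes. DESeq2 called 8 of them, against 0.456% of all genes tested. With limma 0 were called, and 11 had an unadjusted p under 0.05, against 6.32% of all genes. The groups did not overlap in 9 of the 12, against 7.51% of all genes. The leading genes were Eng, with means of 1058 and 2096, and Pecam1, with 888 and 1771. The summed count of 10 fibroblast markers was 12079 to 14233 in the controls and 13827 to 17027 in the mutants, most of it Dcn (means of 11031 and 12815) and Col14a1 (1306 and 1416). Across that list, 4 of the 9 fibroblast markers tested had a log2 fold change above 0 and the median was −0.018. The 8 pericyte markers, led by Rgs5 and Pdgfrb, summed to 1808 to 3394 and 2832 to 3845, with 8 of 8 above 0. The 10 luminal markers, led by Csn2 and Wap, summed to 136089 to 823964 and 104022 to 364703, with 2 of 10 above 0. The 6 adipocyte markers summed to 5023 to 17212 and 7147 to 20606, and most of that sum was Lep and Plin4, which had log2 fold changes above 0. The other 4, Adipoq, Plin1, Cidec and Retn, had log2 fold changes of −0.81 to −1.22, and the median of the 6 was −0.97. The 10 immune markers, led by Cd74 and Lyz2, summed to 858 to 3044 and 1185 to 3356, with 4 of 7 tested above 0. In such bulk samples, fewer cells of a type and less RNA per cell cannot be told apart. No listed marker of a cell type was at 0 in all 7 libraries. The part of these cell types in the results below was not tested, beyond a fit with the fibroblast marker mean as a covariate.

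The enzymes covered a wide range of levels. To compare genes, each normalised read count was divided by the summed exon length of the gene in GENCODE M21, the annotation of the same build (mm10), giving a level per kb. The exon lengths that the authors' counting used are not known. On this scale P4ha1 was the highest, with a mean of 415 per kb over the 7 libraries and a range of 208 to 551. Plod3 followed at 361 per kb (304 to 456) and Plod1 at 238 per kb (187 to 313). P4ha1 lay above Plod3 in 6 of 7 libraries and Plod3 above Plod1 in 7 of 7, although both pairs of ranges overlapped. The order of Plod3 and Plod1 depends on the exon lengths used, 4.52 kb and 6.76 kb. In counts not divided by length, Plod1 lay above Plod3 in each mutant library and below it in each control. Loxl3 was next at 142 per kb (105 to 181), with a range below that of Plod1 and above that of Loxl1. The remaining 6 genes were at or below a mean of 49.0 per kb. These were Loxl1 (49.0), P4ha2 (45.4), Loxl4 (23.7), Loxl2 (22.5), Plod2 (18.2) and Lox (7.17), and each overlapped its neighbour in this order. Loxl4 lay above Loxl2 in 4 of 7 libraries, Loxl1 above P4ha2 in 5 and Loxl2 above Plod2 in 5. The order within these pairs is not settled by these data.

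**Figure D1:**
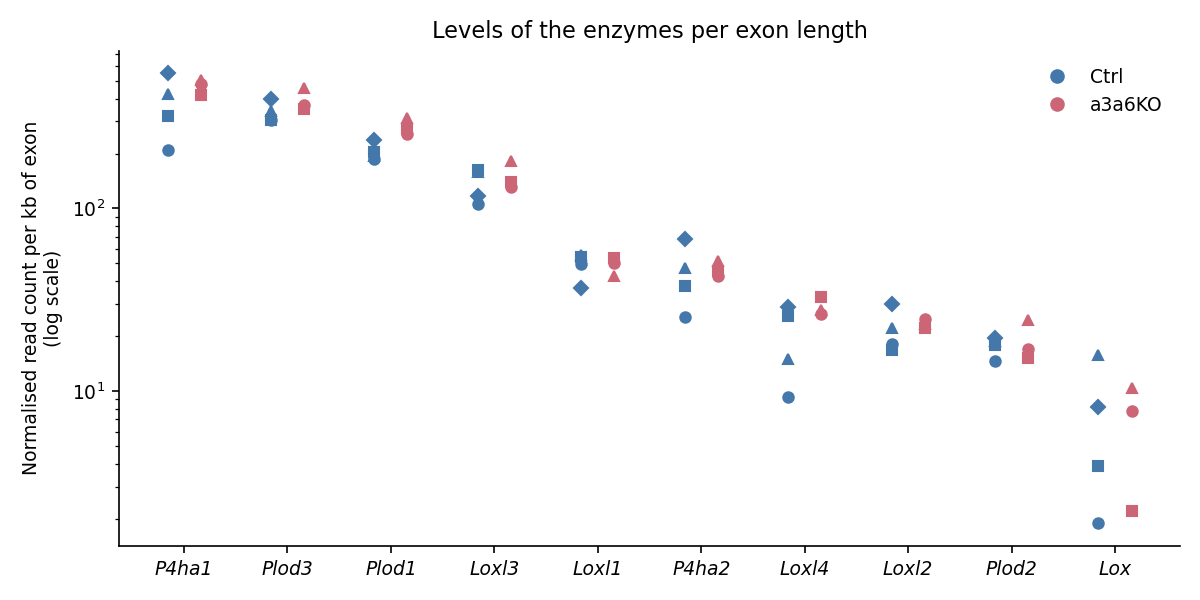
Level of each enzyme per kb of exon (normalised read count divided by exon length, log axis) in every library; blue points are Ctrl, red points a3a6KO, and the marker shape gives the replicate as in the plot of values by library. P4ha1, Plod3, Plod1 and Loxl3 have means of 142 to 415 per kb, and the other 6 genes of 7.17 to 49.0.

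The members held unequal shares of each family. P4ha1 made up 89.0% to 91.8% of the summed prolyl hydroxylase level per kb in every library. Among the lysyl hydroxylases, Plod3 held 54.8% to 61.7% and Plod1 34.9% to 42.8%, and Plod2 at most 3.4%. These shares too depend on the exon lengths used. Among the lysyl oxidases, Loxl3 held 53.0% to 63.5%, Loxl1 14.9% to 26.9%, Loxl2 6.4% to 13.6% and Loxl4 5.0% to 13.1%, while Lox itself, the founding member of the family, held 0.9% to 5.9%.

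Ratios between the 2 most abundant members of a family were looked at after the values were seen, and no test is given. The level per kb of P4ha1 was 8.20, 8.53, 8.95 and 8.08 times that of P4ha2 in the controls and 11.2, 9.28 and 9.84 times in the mutants. The groups did not overlap, which holds for 3.97% of all genes set against P4ha1, but the gap between 8.95 and 9.28 is smaller than the counting error of the latter (SE 0.68). P4ha1 and P4ha2 each ranged over more than 2.6-fold among the controls while their ratio stayed between 8.08 and 8.95. The level per kb of Plod3 was 1.63, 1.5, 1.77 and 1.69 times that of Plod1 in the controls and 1.45, 1.28 and 1.46 times in the mutants. These groups did not overlap either, as for 26.5% of all genes set against Plod1, and the gap between 1.5 and 1.46 is below the counting error (SE 0.06). Both counting errors take each recovered read as independent, so they may be too small. The ratio of Loxl3 to Loxl1 overlapped, at 2.12 to 3.19 in the controls and 2.60 to 4.25 in the mutants, against 3.9% of all genes set against Loxl3 whose groups did not overlap.

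The rows of Lox and Loxl2 need care. In the deposited table the Lox model on chromosome 18 (minus strand, 52200486 to 52529869) spans 329.4 kb, against 13.8 kb in GENCODE M21, and it contains the coding genes Srfbp1 and Ftmt on the other strand. Srfbp1 has its own row, at 175 to 263. The Loxl2 model on chromosome 14 (plus strand, 69391201 to 69695834) spans 304.6 kb, against 86.8 kb, and contains Entpd4b on the same strand and Gm16867 and Gm27179 on the other. The sources used here do not say whether counting used strand. Whether reads from these neighbours entered the rows was not tested. Loxl3, Loxl4 and Plod3 each overlap a coding gene on the opposite strand (Htra2, R3hcc1l and Znhit1), to which the same holds.

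No member of the set passed the test between the groups in limma after adjustment over all 16889 genes, where adjusted p ran from 0.609 to 0.997. That was 0 of 10, and the background was the same, with 0 genes called (0% of those tested). At an unadjusted p under 0.05 limma held 1 of 10, against 6.32% of all genes (1068), and edgeR on recovered reads called 0 genes in all, with 1025 at that level. DESeq2 called 77 genes (0.456%), of which 0 were members. All 10 log2 fold changes, a3a6KO minus Ctrl, were above 0, against 49.4% of all genes. However, the mean counts of Lox and Loxl1 were slightly lower in the mutants. The signs of Lox, Loxl1, Plod2 and P4ha2 each turned under at least 1 alternative. The median over the members was 0.15, against −0.004 over all genes. It ranged from 0.056, with 7 of 10 above 0, without Ctrl replicate 1 to 0.30 without Ctrl replicate 4, and 8 of 10 were above 0 in edgeR and DESeq2. The groups did not overlap in 1 of 10 members, Plod1, against 7.51% of all genes, or 4% with the mutants higher.

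**Figure D2:**
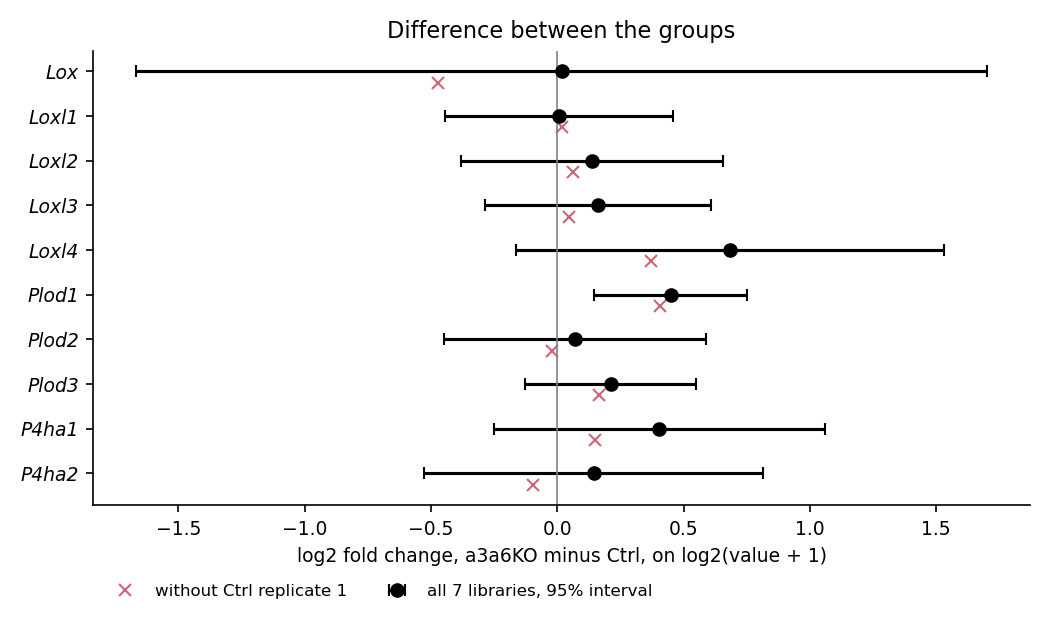
Log2 fold change of each enzyme, mutants minus controls, computed on log2(value + 1); black points and bars are the limma estimate from all 7 libraries with its 95% interval, and red crosses the estimate without Ctrl replicate 1. The interval includes 0 for every enzyme but Plod1, and no adjusted p is under 0.609.

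Plod1 encodes lysyl hydroxylase 1, which acts on lysines in the helical part of collagen, and lies on chromosome 4 (minus strand, 147909754 to 147936776, identifier GSMG0028647). The normalised read count was 1264, 1384, 1316 and 1596 in the controls, replicates 1 to 4, and 1721, 1853 and 2117 in the mutants, replicates 1 to 3, the order used for every gene below. Each mutant library lay above each control, with the smallest gap between Ctrl replicate 4 and a3a6KO replicate 1. The means were 1390 ± 146 (SD, n = 4) and 1897 ± 202 (SD, n = 3), a ratio of 1.36. The log2 fold change was 0.45 (SE 0.13, 95% interval 0.15 to 0.75), with a limma unadjusted p of 0.00846 and an adjusted p = 0.609. Over the 19 alternatives it ran from 0.37 (without a3a6KO replicate 3) to 0.52 (without Ctrl replicate 4), and the adjusted p from 0.229 (DESeq2) to 0.975 (without Ctrl replicate 1). The endothelial marker sums given above were likewise higher in each mutant library than in each control.

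Plod3 (chromosome 5, plus strand, 136987019 to 136996646, GSMG0029927) encodes lysyl hydroxylase 3, which also adds sugars to hydroxylysine and is needed for collagen IV assembly. Its counts were 1374, 1386, 1553 and 1797 in the controls and 1666, 1584 and 2062 in the mutants. The groups overlapped, since the highest control, replicate 4, lay above 2 of the 3 mutants. The log2 fold change was 0.21 (SE 0.15, −0.13 to 0.55, limma adjusted p = 0.833), and 0.097 without a3a6KO replicate 3. Plod2 (chromosome 9, plus strand, 92542218 to 92608425, GSMG0039916) encodes lysyl hydroxylase 2, which acts on the telopeptides at the ends of collagen. It had 78.3, 97.0, 101 and 106 in the controls and 92.0, 81.8 and 132 in the mutants. The mutant range enclosed 3 of the 4 controls, and the log2 fold change was 0.07 (SE 0.23, −0.45 to 0.59, limma adjusted p = 0.959).

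**Figure D3:**
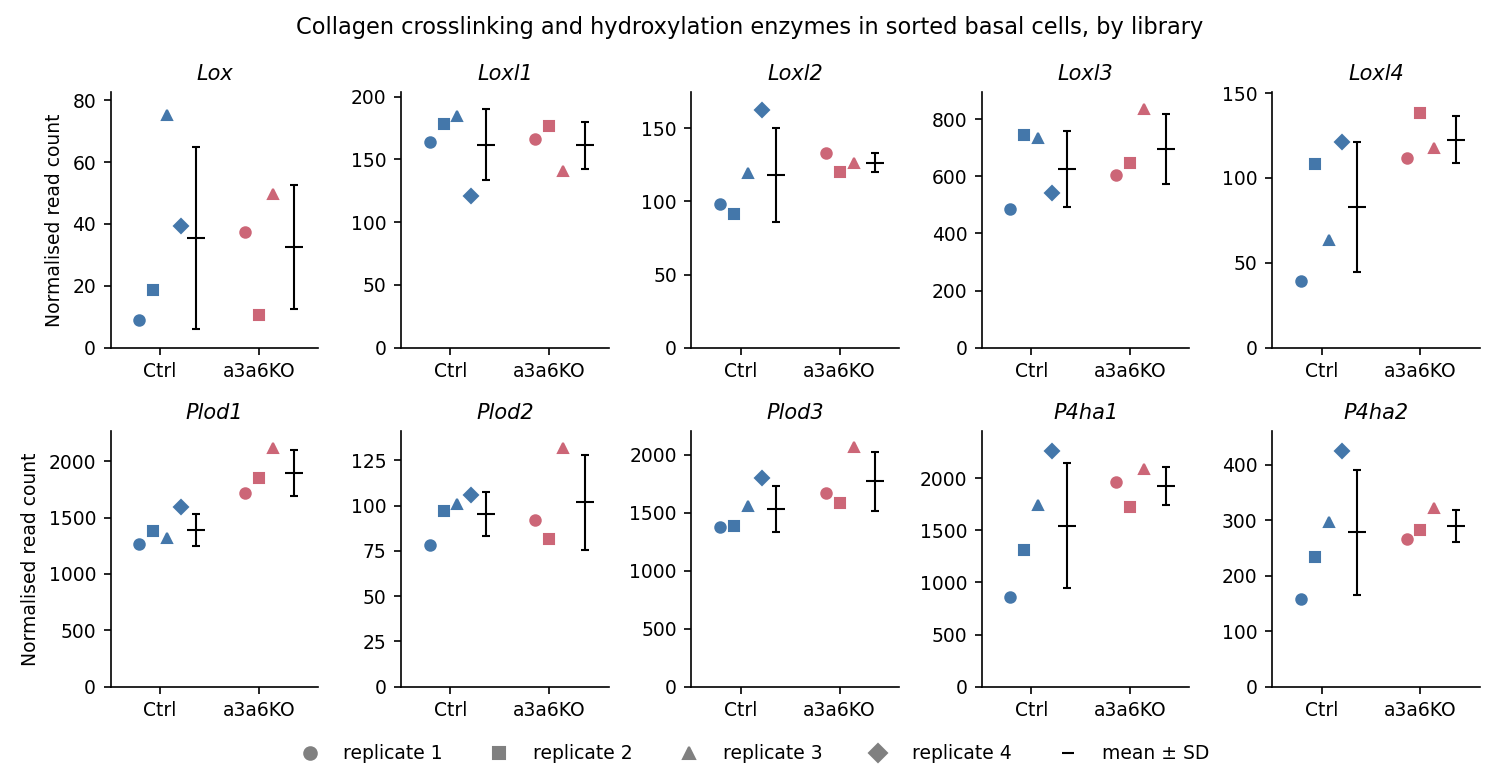
Normalised read count of each enzyme (vertical axis, from 0) in the 4 Ctrl libraries (blue) and the 3 a3a6KO libraries (red); the marker shape gives the replicate and the black bars the group mean ± SD. Only for Plod1 do the a3a6KO points, 1721 to 2117, all lie above the Ctrl points, 1264 to 1596.

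The prolyl hydroxylase subunits P4ha1 and P4ha2 each pair with the P4hb subunit to form the active enzyme. Both varied more among the controls than between the group means. P4ha1 (chromosome 10, plus strand, 59323296 to 59373303, GSMG0003034) measured 858, 1313, 1745 and 2265 in the controls, a range of 2.64-fold, and 1966, 1727 and 2089 in the mutants, a range of 1.21-fold. P4ha2 (chromosome 11, plus strand, 54100924 to 54131667, GSMG0005193) measured 159, 233, 296 and 425 in the controls, a range of 2.68-fold, and 265, 282 and 322 in the mutants, a range of 1.21-fold. For both genes Ctrl replicate 1 was the lowest and Ctrl replicate 4 the highest of the 7 libraries. The means of P4ha1 were 1545 ± 601 (SD, n = 4) and 1927 ± 184 (SD, n = 3). Their log2 fold change was 0.40 (SE 0.29, −0.25 to 1.06, limma adjusted p = 0.837). Without Ctrl replicate 1 it was 0.15 and without Ctrl replicate 4 it was 0.62, so either of these controls moved the value by more than 1.5 times. For P4ha2 the log2 fold change was 0.14 (SE 0.30, −0.53 to 0.82, limma adjusted p = 0.935), and −0.095 without Ctrl replicate 1.

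The 250 bases before the start sites of P4ha1 and P4ha2 are shown, beside those of Plod3 and Plod1, from RefSeq on GRCm38.p6 (the mm10 build). Promoters were matched for 5 of 10 members, P4ha1, P4ha2, Plod1, Plod3 and Loxl4. Capitals mark the core of the element bound by hypoxia-inducible factors, searched as ACGTG and GCGTG on both strands, so that it also appears as CACGT and CACGC. P4ha1 and P4ha2 are textbook targets of these factors. The windows are chr10:59323046-59323295 (plus strand), chr11:54100674-54100923 (plus), chr5:136986769-136987018 (plus) and chr4:147936777-147937026 (minus), each written 5′ to 3′ along the gene.
P4ha1: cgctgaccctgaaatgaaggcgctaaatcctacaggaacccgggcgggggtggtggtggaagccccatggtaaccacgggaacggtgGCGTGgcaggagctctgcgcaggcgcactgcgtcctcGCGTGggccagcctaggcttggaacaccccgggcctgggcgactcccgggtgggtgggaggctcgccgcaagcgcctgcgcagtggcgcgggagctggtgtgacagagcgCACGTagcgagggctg
P4ha2: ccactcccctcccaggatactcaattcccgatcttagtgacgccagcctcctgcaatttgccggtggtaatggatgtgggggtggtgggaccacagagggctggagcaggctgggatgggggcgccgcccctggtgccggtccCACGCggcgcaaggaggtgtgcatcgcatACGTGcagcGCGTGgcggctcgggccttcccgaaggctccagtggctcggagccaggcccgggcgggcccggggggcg
Plod3: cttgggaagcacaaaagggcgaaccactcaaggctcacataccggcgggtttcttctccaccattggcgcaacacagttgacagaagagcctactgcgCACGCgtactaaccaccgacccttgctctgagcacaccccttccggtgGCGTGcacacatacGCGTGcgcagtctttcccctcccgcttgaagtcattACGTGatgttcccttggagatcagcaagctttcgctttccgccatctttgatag
Plod1: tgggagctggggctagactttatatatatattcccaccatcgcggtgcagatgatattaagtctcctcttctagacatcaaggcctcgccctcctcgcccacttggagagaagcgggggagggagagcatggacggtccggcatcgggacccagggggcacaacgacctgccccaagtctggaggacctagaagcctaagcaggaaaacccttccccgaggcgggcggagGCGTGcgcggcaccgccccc
The window of P4ha1 held 3 matches, that of P4ha2 3, that of Plod3 4 and that of Plod1 1, and the Loxl4 window, not printed, held 1. Of the 32851 RefSeq promoter windows of this length, 38.6% held at least 1 match, 6.6% at least 3 and 2.6% at least 4. The core contains CG, and the printed windows are 55.6% to 70.0% G and C, against a median of 52.4% over all windows. A match describes the letters only. The cause of the pattern that P4ha1 and P4ha2 shared across libraries was not tested.

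Among the lysyl oxidases, Loxl3 was the most abundant. Loxl3 (chromosome 6, plus strand, 83034201 to 83052564, GSMG0032106), needed for development of the palate and spine in mice, had 485, 745, 733 and 539 in the controls and 604, 646 and 834 in the mutants. Replicates 1 and 2 of the mutants lay within the control range and replicate 3 above it. The means were 625 ± 133 (SD, n = 4) and 695 ± 123 (SD, n = 3), and the log2 fold change was 0.16 (SE 0.20, −0.29 to 0.61, limma adjusted p = 0.897). Leaving out a3a6KO replicate 3 gave 0.023, and leaving out Ctrl replicate 1 gave 0.048. Loxl1 (chromosome 9, minus strand, 58287723 to 58313212, GSMG0040839), which acts on elastin, had the smallest spread among controls of the 5 oxidases (coefficient of variation 17.7%), with 164, 179, 185 and 121 in the controls and 167, 177 and 141 in the mutants. The mutant values lay inside the control range, the means were 162 and 161, and the interval of the log2 fold change was −0.45 to 0.46 around 0.006.

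Loxl4 (chromosome 19, minus strand, 42592296 to 42612808, GSMG0020403), a member of the branch with scavenger receptor domains, had the largest log2 fold change of the set in the fit to all 7 libraries. Its counts were 39.2, 108, 63.3 and 121 in the controls and 112, 138 and 117 in the mutants. Among the controls, replicates 1 and 3 were low and replicates 2 and 4 near the mutants, so the groups overlapped. The means were 83.0 ± 38.3 (SD, n = 4) and 123 ± 14.03 (SD, n = 3), and the log2 fold change was 0.68 (SE 0.37, −0.16 to 1.53, limma adjusted p = 0.797). It was 0.37 without Ctrl replicate 1. Loxl2 (GSMG0011754), another oxidase of this branch and one that crosslinks collagen IV, had 98.4, 91.3, 119 and 163 in the controls and 133, 120.0 and 126 in the mutants. All 3 mutants lay within the control range, and the log2 fold change was 0.14 (SE 0.23, −0.38 to 0.66, limma adjusted p = 0.924). Leaving out Ctrl replicate 2 gave 0.027, and leaving out Ctrl replicate 4 gave 0.30.

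Lox (GSMG0018964) was near the lower limit of what these libraries measure. It had 9.0, 18.6, 75.3 and 39.3 in the controls and 37.3, 10.5 and 49.8 in the mutants, from 9, 23, 82, 52, 45, 8 and 28 recovered reads. Within each group the values spread widely, by 8.33-fold in the controls and 4.72-fold in a3a6KO. The mean was 35.56 in the controls and 32.55 in the mutants, lower in the mutants although the log2 fold change was above 0. The log2 fold change was 0.017 (SE 0.74, −1.67 to 1.70, limma adjusted p = 0.997), an interval that includes differences of 2-fold in either direction.

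Ctrl replicate 1 was the lowest of the 7 libraries for 8 of 10 members, the exceptions being Loxl1 and Loxl2, whereas it was the lowest for 18.5% of all genes tested. On the log2 scale it lay 1.48 below the gene mean for Lox, 1.22 for Loxl4, 0.93 for P4ha1 and 0.78 for P4ha2. It also had the lowest summed count of the endothelial markers (4606), the pericyte markers (1808), the immune markers (858) and the adipocyte markers (5023). Ctrl replicate 2 was close for the pericyte (1838) and immune markers (941). The fibroblast marker sum of Ctrl replicate 1, 14233, was instead the highest of the controls. Single markers did not all follow these sums. Among the adipocyte markers, Lep was lowest in Ctrl replicate 1 (2072), but Plin4 was highest there (2725). Adipoq, Plin1, Cidec and Retn were lower in Ctrl replicate 2 than in Ctrl replicate 1. Among the pericyte markers, only Rgs5 was lowest in Ctrl replicate 1 (910). Whether these sums bear on the low enzyme values was not tested. Without Ctrl replicate 1, 7 of 10 log2 fold changes were above 0, and those of Lox (−0.47), P4ha2 (−0.095) and Plod2 (−0.022) were below. The value of Plod1 was then 0.41. Ctrl replicate 4, the deepest library, was the highest for P4ha1, P4ha2 and Loxl2 and the lowest for Loxl1, and a3a6KO replicate 3, the shallowest, was the highest for Plod1, Plod2, Plod3 and Loxl3.

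**Figure D4:**
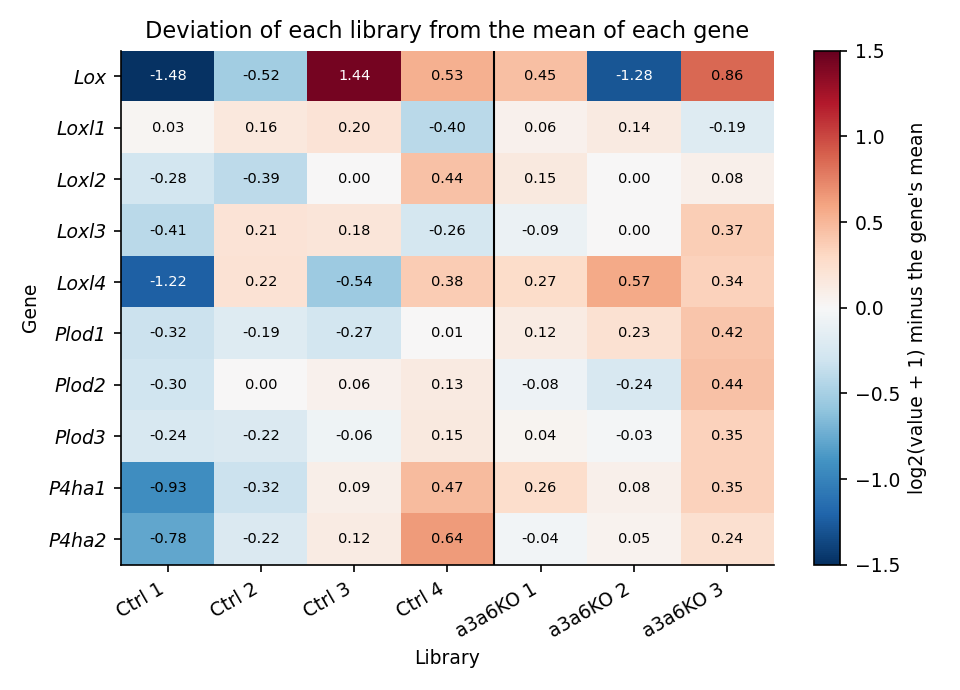
Log2(value + 1) of each enzyme in each library minus the mean of that gene over the 7 libraries; the line separates Ctrl from a3a6KO, and numbers give the plotted values. Ctrl replicate 1 is below the gene mean for 9 of 10 enzymes, from −0.24 for Plod3 to −1.48 for Lox, with Loxl1 at 0.03.

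The genes with the pattern most like the leading member of each family were found by the mean absolute difference of centred log2 values over the 7 libraries, among 10356 named genes with a mean of at least 50. No test was made of these matches. For Loxl3 the nearest were Fkbp14 (0.051), an endoplasmic reticulum isomerase that itself acts on collagen, and Rdh10 (0.078), a retinol dehydrogenase. For P4ha1 they were Fxyd5 (0.080), a regulator of the sodium pump, and Sdf2l1 (0.080), an endoplasmic reticulum protein. For the lysyl hydroxylase with the highest mean count over the 7 libraries, Plod3, a near match was Pdcd6ip (0.048), an endosomal sorting protein. Within the set, the closest pairs were Plod2 and Plod3 (0.122), Plod1 and Plod3 (0.124) and P4ha1 and P4ha2 (0.127). The measure is not scaled by the spread of a gene, so genes that vary little lie close. Among the controls Plod1, Plod2 and Plod3 ranged over 1.26-fold, 1.35-fold and 1.31-fold, and P4ha1 and P4ha2 over 2.64-fold and 2.68-fold.

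The other enzymes and chaperones of procollagen had log2 fold changes mostly above 0. Of 15 listed, 14 were tested, and none passed in limma, edgeR or DESeq2. At an unadjusted p under 0.05 limma held 1 of 14, against 6.32% of all genes. All 14 had a log2 fold change above 0, against 49.4% of all genes, with a median of 0.19. Under quantile normalization 12 of 14 were above 0, and without Ctrl replicate 1 it was 11. Serpinh1, the collagen chaperone HSP47, was the most abundant, at 11542, 14015, 22924 and 16780 in the controls and 28448, 23328 and 19456 in the mutants. The highest control, replicate 3, lay above the lowest mutant, so the groups overlapped (log2 fold change 0.57, SE 0.24, limma adjusted p = 0.770). Colgalt1, which adds galactose to the hydroxylysine made by the lysyl hydroxylases, had 1269, 1529, 1469 and 1070 in the controls and 1607, 1664 and 1656 in the mutants. Its groups did not overlap (0.31, SE 0.15, limma adjusted p = 0.785), as in 2 of the 14 tested, against 7.51% of all genes. P4hb, the partner of both P4ha subunits, averaged 6137 and 6273 (0.039, SE 0.18), a gene named outside the rule for its role.

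Of the 10 genes that process procollagen, activate lysyl oxidases or supply their copper, 9 were tested, and limma called none. At an unadjusted p under 0.05 limma held 2 of 9, against 6.32% of all genes. Of the 9, 8 had a log2 fold change above 0 (median 0.14), against 49.4% of all genes. The median ranged from 0.063 with library weights to 0.25 without Ctrl replicate 3, and 6 of 9 were above 0 without a3a6KO replicate 2 or 3. Adamts3, a proteinase that removes the amino-terminal propeptide of procollagens, had the largest log2 fold change of the 6 pathway lists. It had 102, 123, 139 and 241 in the controls and 381, 348 and 479 in the mutants. The groups did not overlap for this gene, 1 of the 9 tested, against 7.51% of all genes. The log2 fold change was 1.47 (SE 0.28), with a limma adjusted p = 0.515, and DESeq2 called it. Pcolce, which enhances cleavage of the carboxy-terminal propeptide, averaged 393 and 620 (0.73, SE 0.30, limma adjusted p = 0.758). Postn, a scaffold that brings Bmp1 to lysyl oxidase, was the most abundant at 61384 and 65247 (0.10, SE 0.29).

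Among the substrates, none of the genes passed in limma, edgeR or DESeq2. At an unadjusted p under 0.05 limma held 2 of 7 fibrillar collagens, 0 of 12 network collagens and 2 of 10 elastic fibre genes. Over all genes, 6.32% reached that level and 49.4% had a log2 fold change above 0. For the fibrillar collagens 7 of 9 were tested, all 7 had a log2 fold change above 0, and the median was 0.57, and 0.34 without a3a6KO replicate 3. Leaving out replicate 1 or 3 of the controls gave medians of 0.37 and 0.87. Col11a1 averaged 138 and 237 (0.82, SE 0.25, limma adjusted p = 0.640), Col5a1 1194 and 1706 (0.49, SE 0.20), and Col3a1, the most abundant, 4529 and 6386 (0.58, SE 0.44). For Col11a1 the groups did not overlap, 1 of the 7 tested, against 7.51% of all genes. For the basement membrane and other network collagens 12 of 13 were tested and 10 were above 0 (median 0.16, 0.45 without a3a6KO replicate 1, and −0.003, with 6 above 0, without a3a6KO replicate 3). The most abundant was Col4a2 with means of 29864 and 37404 (0.33, SE 0.28), and the smallest p belonged to Col15a1 (0.88, SE 0.41) and Col4a1 (0.42, SE 0.22). For the elastic fibre genes 9 of 10 were above 0, with a median of 0.38, or 0.20 without Ctrl replicate 2 and 0.25 in edgeR and DESeq2. Fbln5, which organises elastin and binds Loxl1, averaged 499 and 869 (0.84, SE 0.26, limma adjusted p = 0.629), and Emilin1 70.1 and 118 (0.82, SE 0.31). The groups did not overlap for Fbln5, 1 of the 10 tested, against 7.51% of all genes. Elastin itself, Eln, had 10602, 4748, 3541 and 10225 in the controls and 10215, 10430 and 9378 in the mutants, so that 2 controls were at the level of the mutants and 2 well below (0.61, SE 0.37).

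Genes of the hypoxia response, to which P4ha1, P4ha2, Plod2 and Lox belong in many tissues, were measured in full. All 16 were tested, and none passed in limma, edgeR or DESeq2. At an unadjusted p under 0.05 limma held 2 of 16, against 6.32% of all genes. Of the 16, 12 had a log2 fold change above 0, against 49.4% of all genes, and the median was 0.13. Adm averaged 350 and 665 (0.91, SE 0.31, limma adjusted p = 0.691), Slc2a1, a glucose transporter, 1877 and 2954 (0.69, SE 0.26), and Ldha, the most abundant, 13613 and 19572 (0.52, SE 0.37). The 4 below 0 were Egln1 (−0.50), Egln3 (−0.43), Pdk1 (−0.39) and Bnip3 (−0.30), named after their values were seen. Without a3a6KO replicate 3 the median was 0.053, and 9 of 16 were above 0, and without a3a6KO replicate 2 it was 0.31.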

How the data were processed

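RNA from basal cells sorted from mouse mammary glands on day 2 of lactation was made into libraries with a SMARTer v4 kit, per the labels' protocols. The 7 libraries were grouped by the genotype label (4 Ctrl, 3 a3a6KO). The labels give no batch or pairing, and replicate numbers follow accession order. The deposited signal values are gene counts that the authors normalised with DESeq2, per the deposited table's title, with 1 size factor for each library. STAR 2.4.0 and build mm10 are named in the submitters' processing notes. Neither the read counter nor its strand setting is given in the sources used here. In each library all values were whole multiples of 1 step (100% to within 0.01 read), from which reads were recovered. Even numbers made up 61.8% to 63.8% of counts from 1 to 20, so a count may not be a single independent read.

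Groups were compared with limma 3.58.1 (R 4.3.3) on log2(value + 1), with the empirical Bayes prior following the mean. The fit took the 16889 genes that reached 10 in 3 or more libraries. Two-sided p-values were adjusted by Benjamini-Hochberg over all of them (threshold 0.05). The scale understates changes of low genes, and the p-values measure the spread between these libraries. Alternatives were pseudocounts, filters, scalings, library weights, empirical Bayes settings, a fibroblast covariate, leaving out each library, and edgeR 4.0.16 and DESeq2 1.42.0 on recovered reads. The code was tested on simulated data. Members, gene lists and tests were chosen with earlier results of these data known. The rule for named genes takes every member, for each pathway list the 2 genes with the smallest p and the most abundant, and for each of the 7 cell type lists the 2 most abundant. It also takes Itga3, Itga6 and the 2 genes most like each family's leading member. The genes overlapping a member, the remaining adipocyte markers, the hypoxia genes below 0 and P4hb were named outside it, and 1 gene it takes is not reported here.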

Additional observations from a re-analysis of the deposited data

How the results depend on the processing

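Over 19 alternatives the number of genes called stayed at 0 in every limma and edgeR setting, leaving out each library included (0 to 0), and was 77 with DESeq2. The number of members called was 0 throughout. The log2 fold changes of Plod1, Plod3, P4ha1, Loxl2, Loxl3 and Loxl4 kept their sign under all 19, but not their size. Leaving out Ctrl replicate 2 put Loxl2 at 0.027 and leaving out Ctrl replicate 4 at 0.30. Loxl3 ran from 0.023 (without a3a6KO replicate 3) to 0.26 (without a3a6KO replicate 1) and Plod3 from 0.097 (without a3a6KO replicate 3) to 0.29 (without Ctrl replicate 4). Lox could not be tested with a filter of at least 50 in 3 libraries. Its sign turned with a pseudocount of 8 (−0.003), in edgeR (−0.15), in DESeq2 (−0.14) and with the fibroblast marker mean as a covariate (−0.010), and leaving out 1 library gave −0.47 (Ctrl replicate 1), −0.15 (Ctrl replicate 2), −0.20 (a3a6KO replicate 1) and −0.41 (a3a6KO replicate 3), up to 0.66. Loxl1 turned in edgeR (−0.008), in DESeq2 (−0.002), with the covariate (−0.003), and on leaving out Ctrl replicate 4 (−0.13) or a3a6KO replicate 1 (−0.020) or 2 (−0.063), the highest value being 0.10 without a3a6KO replicate 3. Plod2 turned with library weights (−0.037) and without Ctrl replicate 1 (−0.022) or a3a6KO replicate 3 (−0.13), and reached 0.21 without a3a6KO replicate 2. P4ha2 turned without Ctrl replicate 1 (−0.095) and reached 0.38 without Ctrl replicate 4. The cause of these turns was not tested. No paired analysis was possible because the labels carry no replicate numbers shared between the groups. Depth limits Lox most, with 8 and 9 reads in its lowest libraries.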
